A study of Mus musculus with 66 samples.

Results

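The PPAR, RXR and PGC-1 genes were followed here through a day of nucleus accumbens transcriptomes: Ppara, Ppard and Pparg, Rxra, Rxrb and Rxrg, and Ppargc1a and Ppargc1b. They were taken by symbol, 8 of the 24138 genes of the deposited table, and all 8 were found, each in a single row. The study asked how a single injection of cocaine changes the daily cycle of transcripts in this dopamine-innervated part of the ventral striatum, and whether the dopamine D2 receptor (D2R) of indirect pathway medium spiny neurons (iMSNs) is needed. Tissue punches came from male wild type (WT) and iMSN-D2RKO mice, both of the strain C57BL/6 per the labels. In the mutants Cre recombinase, driven by the D1R promoter, removes floxed D2R alleles, which relies on precursors of the spiny neurons that express D1R and D2R together, so the deletion dates from development and D2R of other cells is not its target. WT mice served as controls. Mice of each genotype received saline or cocaine (20 mg/kg) at zeitgeber time (ZT) 3 and were killed at ZT7, ZT11, ZT15, ZT19 or ZT23, with 3 libraries per group. The ZT3 libraries, 3 per genotype, carry both treatments in their label and opened the saline and the cocaine series alike. This gave 22 groups and 66 libraries, and each series of 6 time points held 18 libraries.

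PPARs are nuclear receptors that bind fatty acids and their derivatives, prostaglandins among them, and that sit on DNA as heterodimers with an RXR. PPARα and PPARδ are best known for driving fatty acid oxidation, and PPARγ for fat cell differentiation. RXRs also pair with retinoic acid, thyroid hormone, vitamin D and liver X receptors, and RXRγ is a known marker of the striatum. PGC-1α and PGC-1β are coactivators without DNA binding of their own, which dock on PPARs and on other factors and raise mitochondrial genes. In brain, PGC-1α is known for its role in fast-spiking interneurons.

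The values are FPKM, that is fragments scaled by transcript length and library size, so levels of different genes can be set side by side. Summed FPKM ran from 364078 to 690048 per library, and 12496 to 13028 genes reached 1 FPKM. Read counts are not part of the table and depth was estimated only roughly, from the steps of low values in 1439 genes, as 0.357 to 1.31 relative to the typical library. Drd2, the targeted gene, ranged from 78.0 to 375 FPKM, and no difference of its whole-gene level between iMSN-D2RKO and WT was called in limma (log2 difference -0.02, -0.36 to 0.32, adjusted p = 0.978 under saline, and -0.25, -0.63 to 0.13, adjusted p > 0.99 under cocaine). Without the 13 libraries set apart, described next, it was -0.10 (adjusted p = 0.711) and -0.31 (-0.55 to -0.07, unadjusted p = 0.0125, adjusted p = 0.511). A value summed over the gene need not show the loss of an exon, and other D2R cells remain, so the label was not tested by it. The tissue label was met by its leading marker: Ppp1r1b (DARPP-32) lay at 609 FPKM or above in every library. The iMSN peptide gene Penk was higher in iMSN-D2RKO (log2 difference 0.76, adjusted p = 0.0165 under saline and 0.69, adjusted p = 0.0224 under cocaine, limma). Slc17a7, a cortical marker, ran from 1.78 to 233 FPKM, so punches differed in neighbouring tissue. Of 5 fat cell markers, 4 (Adipoq, Cidec, Lep and Plin1) stayed below 1 FPKM in all libraries.

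A set of 13 libraries stood apart from the other 53 within their own groups, along an axis that held 43.6% of the within-group variance of 9584 genes; their scores ran from 44.3 to 56.1 against -35.9 to 15.1. They fell in both genotypes (6 WT, 7 iMSN-D2RKO) and both treatments (7 saline, 6 cocaine) and none was from ZT3 or ZT11. In WT they were saline ZT19 replicates 1 and 2, cocaine ZT19 replicates 1 and 3, saline ZT23 replicate 1 and cocaine ZT23 replicate 3. They were shallow: their relative depth ran from 0.365 to 0.675, and 51 of the other 53 lay above that range. The exceptions were WT cocaine ZT15 replicate 3 (0.357, the lowest of all 66) and iMSN-D2RKO saline ZT7 replicate 1 (0.407). Astrocyte marker genes summed to a median of 365 FPKM in them and 244 in the others. Several members differed sharply between the sets, so results are given with and without them.

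RXR transcripts were the most abundant of the family. Rxrg had the highest mean, 48.8 ± 15.5 FPKM (SD, n = 66), followed by Rxrb at 38.9 ± 8.16 and Rxra at 9.95 ± 1.88. Of all genes of the table, 92.7% had a lower mean than Rxrg. Rxrg exceeded Rxrb in 55 of 66 libraries and the ranges overlapped, whereas Rxrb exceeded Rxra in all 66 and the ranges did not. The coactivator genes came next, Ppargc1a at 9.47 ± 4.08 FPKM and Ppargc1b at 5.01 ± 2.71, with Ppard between them at 8.57 ± 2.17. Rxra, Ppargc1a and Ppard were not separable in that order: Rxra was above Ppargc1a in 46 of 66 libraries, and Ppargc1a above Ppard in 24. Ppard exceeded Ppargc1b in 60 of 66. The remaining PPARs were scarce. Ppara averaged 0.823 ± 0.190 FPKM and reached 1 FPKM in 8 libraries. Pparg averaged 0.358 ± 0.188 with a highest value of 0.917, and Ppara exceeded it in 60 of 66. Pparg was above 0 in every library yet in 0 of 66 did it reach 1 FPKM, and it therefore failed the filter of 1 FPKM in at least 1 compared library that the tests used. The other 7 members passed. Within groups the spread differed by gene: the median coefficient of variation over the 22 groups was 10.7% for Rxra, 14.7% for Rxrb, 32.7% for Ppargc1a and 35.0% for Pparg.

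**Figure D1:**
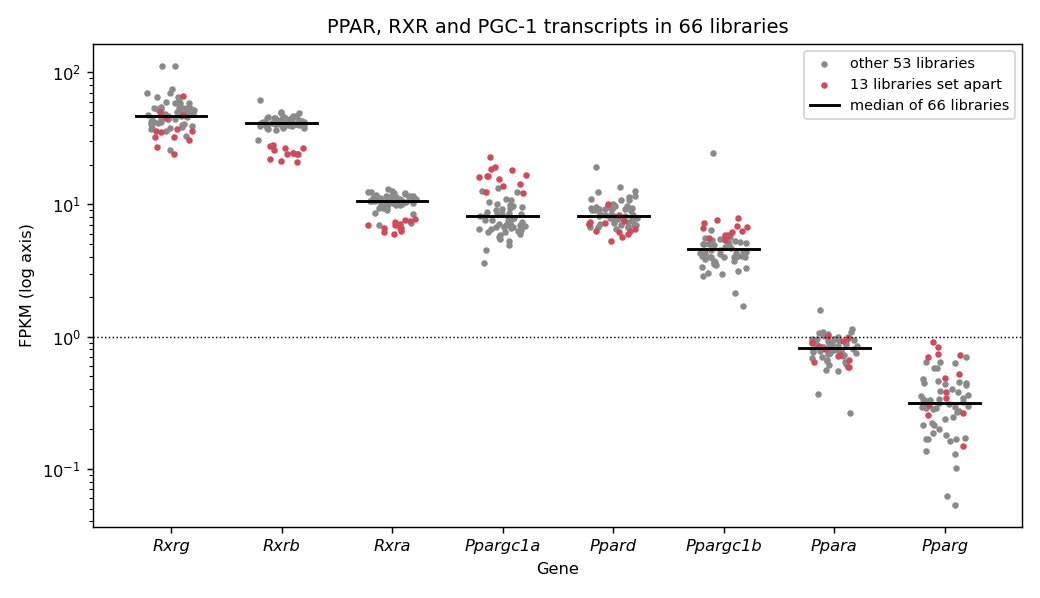
FPKM (log axis) of the 8 genes in each of 66 libraries, ordered by mean; red points are the 13 libraries set apart, grey points the other 53, bars the medians and the dotted line 1 FPKM. Rxrg and Rxrb lie highest, Pparg lies under 1 FPKM everywhere, and red points sit low for Rxra and Rxrb and high for Ppargc1a.

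The order of Rxra, Ppargc1a and Ppard depended on the library set. Ppargc1a was above Rxra in all 13 set apart and in 7 of the other 53, and above Ppard in 13 of 13 and 11 of 53. Rxrb had a median of 24.3 FPKM in the 13 (21.0 to 28) and 42.0 in the others (30.9 to 61.6), with no overlap. Rxra had medians of 6.96 and 10.9. Ppargc1a moved the other way, with 16.3 FPKM (12.2 to 22.9) in the 13 and 7.42 (3.58 to 13.3) in the others, and Ppargc1b with 6.24 and 4.28. Rxrg had medians of 36 and 48.4 and Ppard 6.54 and 8.41. Ppara differed least, 0.806 against 0.823 FPKM. Drd2 itself had medians of 228 and 118. These splits are descriptions, since the axis was computed from the same libraries.

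**Figure D2:**
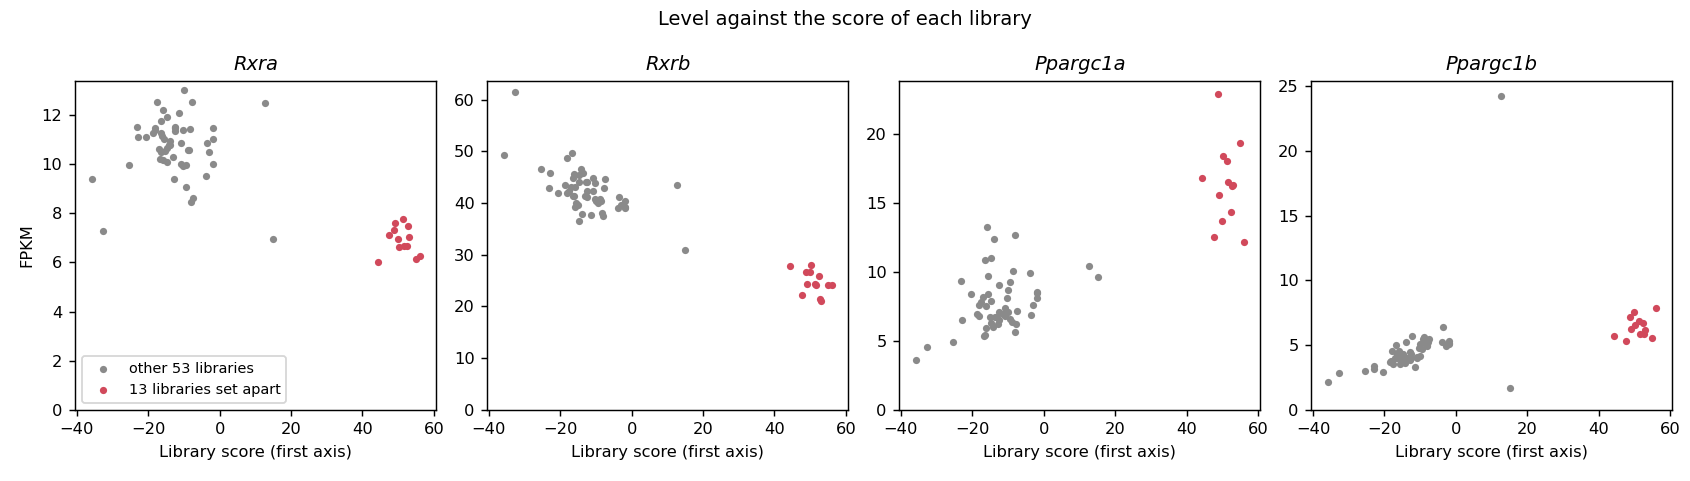
FPKM of Rxra, Rxrb, Ppargc1a and Ppargc1b against the score of each library on the first axis of within-group variance; red points are the 13 libraries set apart. Rxrb falls and Ppargc1a rises with the score (r = -0.95 and 0.83 over 66 libraries), while Rxra is lower in most red points and shows no slope inside the grey ones (r = -0.04 over 53).

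Over 66 libraries the correlation with the score was -0.95 for Rxrb, -0.81 for Rxra, 0.83 for Ppargc1a and 0.56 for Ppargc1b. Over the 53 others it was -0.64, -0.04, 0.44 and 0.54, so for Rxra it rested on the 13. Pairs of members behaved in the same way. Rxrb and Ppargc1a gave r = -0.84 over 66 and -0.57 over 53, and Rxra and Rxrb 0.74 and -0.05. Other pairs were closer without the 13: Ppara with Ppargc1b (0.53 over 66, 0.65 over 53) and Ppard with Ppargc1a (-0.02 and 0.62). All are on the log2(FPKM + 1) scale and the points share library, depth and tissue composition.

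The promoters of 4 members are shown. Rxra, Rxrb and Ppargc1a had the strongest correlations with the library score over the 66 libraries. Rxrg carried the difference between genotypes described further on. Each is 120 bases upstream of the start that RefSeq gives on GRCm38.p6, the assembly of the mm10 build to which the authors aligned, read 5′ to 3′ on the strand of the gene. Rxra lies on the plus strand at chr2:27677080-27677199, Rxrb on the plus strand at chr17:34031691-34031810, Ppargc1a on the minus strand at chr5:51567727-51567846 and Rxrg on the plus strand at chr1:167598241-167598360. Capitals mark GGGCGG, the GC box bound by Sp1, and TGACG, the core of the cAMP response element, on either strand; the matches do not overlap each other.
Rxra: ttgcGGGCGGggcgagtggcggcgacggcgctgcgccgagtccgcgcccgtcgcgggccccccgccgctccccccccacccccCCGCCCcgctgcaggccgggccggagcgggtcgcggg
Rxrb: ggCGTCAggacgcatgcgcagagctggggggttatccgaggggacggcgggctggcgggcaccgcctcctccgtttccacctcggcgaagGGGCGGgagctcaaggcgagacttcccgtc
Ppargc1a: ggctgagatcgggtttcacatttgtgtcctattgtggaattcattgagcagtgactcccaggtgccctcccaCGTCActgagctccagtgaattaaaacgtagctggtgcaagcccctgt
Rxrg: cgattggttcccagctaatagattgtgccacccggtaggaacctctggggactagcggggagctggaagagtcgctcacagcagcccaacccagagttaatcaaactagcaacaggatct

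The window of Rxra is 87.5% G and C and holds 2 GC boxes, and that of Rxrb is 71.7% with 1 of each motif. Those of Ppargc1a (51.7%, 1 TGACG) and Rxrg (54.2%, neither) lie near the median of 54.2% over 32851 promoters. In windows of this length 26.4% of all promoters hold GGGCGG and 11.7% hold TGACG. The direct repeat of AGGTCA with any single base between the copies is bound by PPAR and RXR dimers. It was in 0 of 12 member promoters over the longer upstream window of the RefSeq table, both strands searched. It was in 0.0335% of all 32851. Promoters of Ppargc1b were not among the 12. A match is a run of letters and no binding was measured. In the GENCODE annotation, release M21, Rxrg spans chr1:167598384-167639623, Rxra chr2:27676440-27762957 and Rxrb chr17:34031812-34038399, all on the plus strand, and Ppargc1a spans chr5:51454250-51567726 on the minus strand. Ppara lies at chr15:85734983-85802819, Ppard at chr17:28232700-28301474 and Pparg at chr6:115360951-115490399, on the plus strand. All are protein coding. The window shown for Rxra lies inside its GENCODE span, downstream of the start given there. Genes overlap Ppargc1a (Gm42614, Gm42615 and Gm43605 on its strand) and Ppargc1b (Mir378a), and Gm44079 overlaps Pparg on the other strand. The use of strand in counting is not given in the sources used here, so reads of these could not be told apart.

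Time of day was tested first. JTK_CYCLE ranks the 18 values of a series against cosine waves of 20 and 24 h, and genes with a corrected p under 0.01, the level that the study used, were called. In the WT saline series 1 member of 7 tested was called, Ppara, the receptor of fasting and fat burning; 9.81% of all genes tested were called there. Its values were low at ZT7 and ZT23 and highest at ZT15. They were 0.967, 0.890 and 0.850 FPKM at ZT3, then 0.747, 0.694 and 0.741 at ZT7, 0.874, 0.993 and 1.05 at ZT11, 0.962, 1.06 and 1.14 at ZT15, 0.976, 0.911 and 0.753 at ZT19 and 0.591, 0.726 and 0.612 at ZT23. The ZT15 values lay above all those of ZT7 and ZT23, and the ZT11 and ZT15 values overlapped. The fitted period was 20 h with a peak at ZT15 (corrected p = 0.00255, exact test of JTK_CYCLE). Without the libraries set apart Ppara was no longer called (exact corrected p = 0.0197), nor without replicate 2 or replicate 3 of each group (0.0833 each), without ZT11 (0.0121), ZT15 (0.0606) or ZT23 (0.0418), all exact. With the library score removed it was called (exact corrected p = 0.00533).

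In the other 3 series 0 members were called: 0 of 7 in WT cocaine (7.61% of genes tested), 0 of 7 in iMSN-D2RKO saline (2.58%) and 0 of 7 in iMSN-D2RKO cocaine (1.10%). A limma F test of a 24 h cosine called 0 members in all 4 series. Its share over all genes is not given here, and a lack of calls does not show a lack of rhythm. Ppara had its highest group mean at ZT15 in every series, with 1.14 ± 0.391 FPKM in WT cocaine, 1.02 ± 0.0579 in iMSN-D2RKO saline and 0.929 ± 0.131 in iMSN-D2RKO cocaine (SD, n = 3). The WT cocaine mean contains a value of 1.59 in replicate 3, which was also far from its partners for Ppargc1b (24.3 FPKM against 4.53 and 2.96). Ppara in iMSN-D2RKO saline had a corrected p of 0.0809. The series share the ZT3 libraries within a genotype. Among the rest, Rxrg in iMSN-D2RKO saline came nearest to a call (exact corrected p = 0.0216, peak ZT7) and was called without the libraries set apart (0.00956) but not with the score removed (0.0623). Ppargc1a in WT cocaine had an exact corrected p of 0.0410 with a peak at ZT21, and 0.216 without them. At the peak times of Ppargc1a, ZT19 and ZT23, WT cocaine held 3 libraries of the set apart with 14.3 to 18.4 FPKM, and the other 3 had 4.90 to 9.60. Rxrb in WT cocaine (0.0555) had its lowest mean, 26.1 ± 4.76 FPKM, at ZT19, where replicates 1 and 3 were set apart, and its corrected p without the 13 was 1. Their part in these results was not tested further. Pparg, tested without the filter, had corrected p of 0.398 or more in all 4 series.

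**Figure D3:**
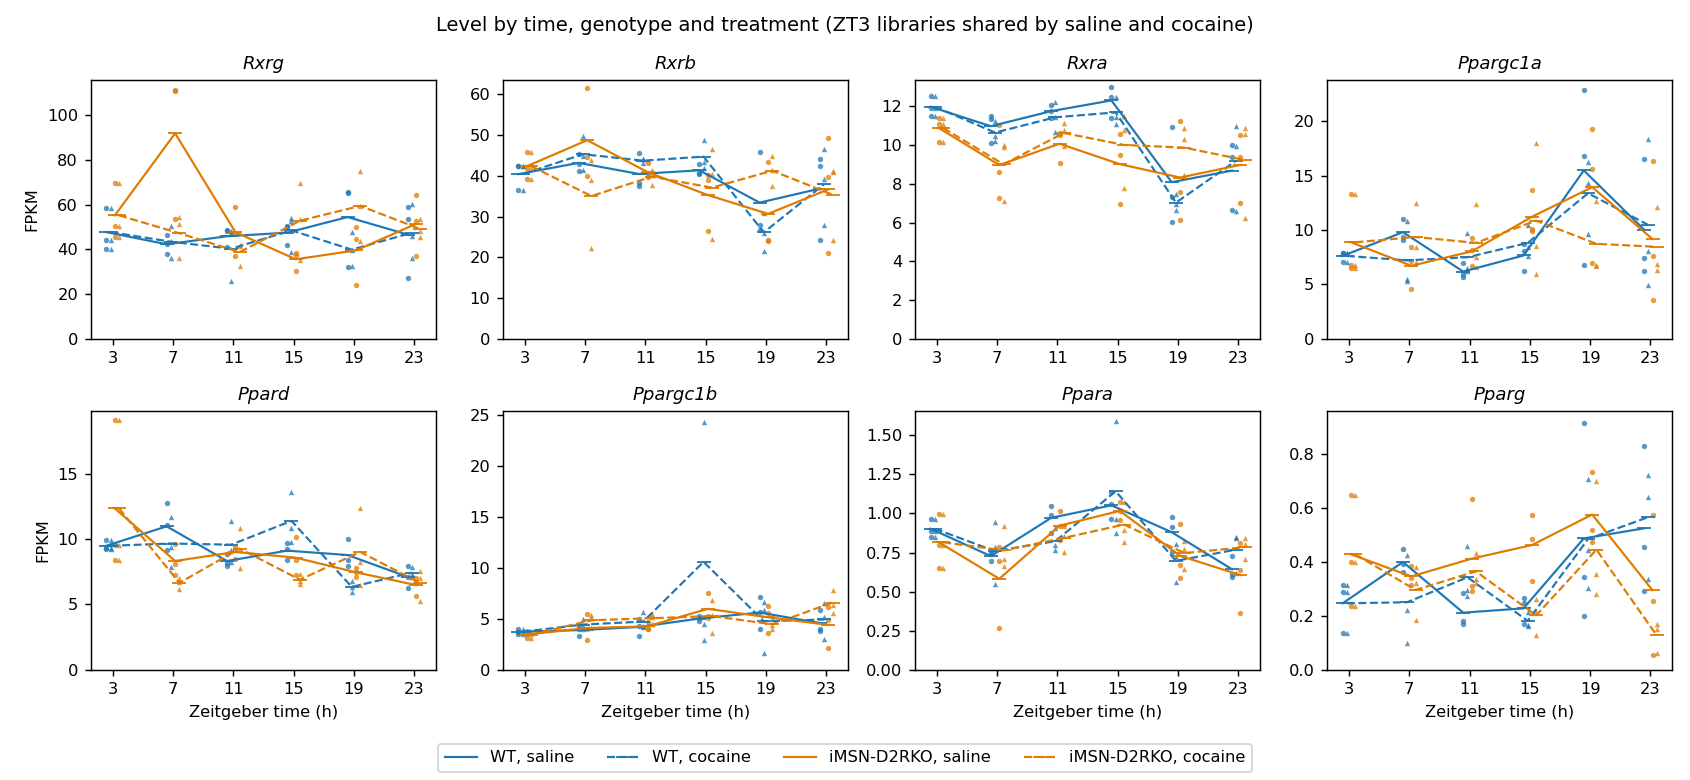
FPKM of the 8 genes by zeitgeber time; points are libraries (circles saline, triangles cocaine), lines join the means of 3 libraries per group, blue WT and orange iMSN-D2RKO, and the ZT3 points are drawn in both treatments. Ppara is highest at ZT15 in each series, Rxrg stands out at ZT7 in saline-treated iMSN-D2RKO, and a single value of 24.3 FPKM lifts Ppargc1b at ZT15 in WT cocaine.

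Differences in rhythm between series were tested directly, as the change of a 24 h cosine in limma. Cocaine against saline gave 0 members called of 7 in WT (0% of genes tested) and 0 in iMSN-D2RKO (0%), and iMSN-D2RKO against WT gave 0 under saline (0%) and 0 under cocaine (0%). At an unadjusted p under 0.05 there were 198, 789, 355 and 695 genes in these 4 comparisons. Rxrg was among them in 2, for cocaine against saline in iMSN-D2RKO (unadjusted p = 0.0013, adjusted p = 0.594) and for genotype under saline (0.0062, adjusted p = 0.975). Ppara, called rhythmic in WT saline alone, was not shown to differ in rhythm between treatments in WT (adjusted p > 0.99) or between genotypes under saline (adjusted p = 0.99).

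Mean levels over the day did not move with cocaine beyond the spread of the libraries. With time as a factor and the ZT3 libraries left out, limma called 0 of 7 members for cocaine against saline in WT (0% of 14392 genes tested) and 0 in iMSN-D2RKO (0% of 14238). At an unadjusted p under 0.05 there were 365 and 425 genes, 0 members in each. The largest estimate in WT was that of Rxrg, -0.10 on the log2(FPKM + 1) scale (95% interval -0.35 to 0.15), and in iMSN-D2RKO that of Ppargc1b, 0.13 (-0.10 to 0.37). All 7 estimates ran from -0.10 to 0.10 in WT and from -0.06 to 0.13 in iMSN-D2RKO, and over all 7 the intervals reached from -0.37 to 0.48 and from -0.41 to 0.37. The treatment effect was not shown to depend on genotype for any member (0 called, 0% of 14622 genes; 245 genes and 0 members at an unadjusted p under 0.05), the largest difference being 0.14 for Rxra (-0.09 to 0.37). Pparg without the filter gave -0.003 in WT (-0.13 to 0.12) and -0.14 in iMSN-D2RKO (-0.25 to -0.03, unadjusted p = 0.0127, adjusted p = 0.992), on a scale that compresses values this low.

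Between genotypes, 0 of 7 members were called over the day under saline, ZT3 included (0.189% of 14287 genes), and 0 under cocaine (0.0487% of 14382); these comparisons share no library. Rxra was the lowest under saline, -0.16 (-0.32 to -0.003; unadjusted p = 0.0465, adjusted p = 0.493, limma), and the only member at an unadjusted p under 0.05. Its saline group means were 10.9 ± 0.640 against 12 ± 0.510 FPKM in WT at ZT3, 8.97 ± 1.91 against 11 ± 0.771 at ZT7, 10.1 ± 0.876 against 11.8 ± 0.343 at ZT11 and 9.02 ± 1.86 against 12.3 ± 0.838 at ZT15 (SD, n = 3), and then 8.33 ± 2.63 against 8.09 ± 2.54 at ZT19 and 8.98 ± 1.78 against 8.69 ± 1.79 at ZT23. iMSN-D2RKO was thus lower at the first 4 times, and the means were close at the last 2, where libraries of both genotypes were set apart; replicate 2 of the mutant at ZT15 was too. Without the 13 the difference was -0.17 (-0.27 to -0.06, adjusted p = 0.149). Under cocaine the largest estimate was that of Ppard, -0.18 (-0.39 to 0.03). In bulk tissue fewer cells of a type and less RNA per cell cannot be told apart.

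At single time points, 2 of 77 tests of members between genotypes passed, with an adjusted p under 0.05 over all genes (1.77% over all genes and the 11 contrasts). They concerned Rxrg and Ppard. Rxrg was higher in saline-treated iMSN-D2RKO at ZT7, 4 h after the injection, with 112, 53.5 and 111 FPKM against 38.1, 42.2 and 46.5 in WT. All mutant values lay above all WT values, and 2 of them were the highest of the 66 libraries. The log2 difference was 1.03 (SE 0.29, 95% interval 0.44 to 1.63, adjusted p = 0.0477, limma; 3.07% of genes were called in this contrast). Under cocaine at the same time the mutant had 51.4, 36 and 54.3 FPKM and WT 43.8, 50.4 and 36.1, which overlapped. At ZT15 under saline Rxrg was the lower in the mutant without overlap, 38.5, 30.5 and 37.7 FPKM against 49.9, 41.9 and 50.6 (log2 difference -0.41, adjusted p = 0.824). At ZT7, within iMSN-D2RKO, cocaine against saline gave -0.89 (-1.49 to -0.30, adjusted p = 0.118). The call was lost without replicate 1 of every group (log2 difference 0.78, adjusted p = 1), without replicate 3 (0.93, 0.118), without the filter (0.0567) and after centring each library on its median (0.96, 0.0709). It was kept without the libraries set apart (0.0113), none of which is in this contrast. Replicate 1 of that mutant group, shallow at a relative depth of 0.407, had the highest summed FPKM of the series, with Penk at 9282 FPKM (its partners 1983 and 2384), Ppp1r1b at 3779 (1232 and 1673) and Drd2 at 375 (103 and 157). The 4 striatal projection neuron markers summed to 1960 to 5262 FPKM in this mutant group and to 1636 to 1770 in its WT counterpart. Their part in the Rxrg difference was not tested.

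Ppard, the broadly expressed PPAR, was lower in cocaine-treated iMSN-D2RKO at ZT15, with 6.80, 7.32 and 6.54 FPKM against 10.8, 9.74 and 13.6 in WT. The groups did not overlap. The log2 difference was -0.64 (SE 0.18, 95% interval -0.999 to -0.280, adjusted p = 0.0349, limma; 4.40% of genes were called in this contrast). It was lost without replicate 1 (-0.66, adjusted p = 0.10), without replicate 3 (-0.48, adjusted p = 1) and without the libraries set apart (-0.61, 0.0959), of which replicate 3 of the mutant group is one. WT replicate 3, with the highest Ppard value of the 6, is the library that also stood out for Ppara and Ppargc1b and the shallowest of the 66 (0.357). Penk was higher in the mutant in this contrast (log2 difference 1.29, adjusted p = 0.0181, limma). The choroid plexus gene Clic6 was too (0.69, adjusted p = 0.0367, limma). No other gene of their marker lists was called there. The 4 cortical markers summed to 3.40 to 44.8 FPKM in the mutant and 28.1 to 97.0 in WT. The part of these markers in the Ppard difference was not tested. At ZT7 under cocaine the groups did not overlap either, 6.74, 6.20 and 6.99 in the mutant against 9.41, 7.86 and 11.7, without passing. At ZT19 the groups overlapped and the mutant mean was the higher, with 8.20, 6.48 and 12.3 FPKM against 5.92, 6.75 and 6.33 (log2 difference 0.41, adjusted p = 0.0919).

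**Figure D4:**
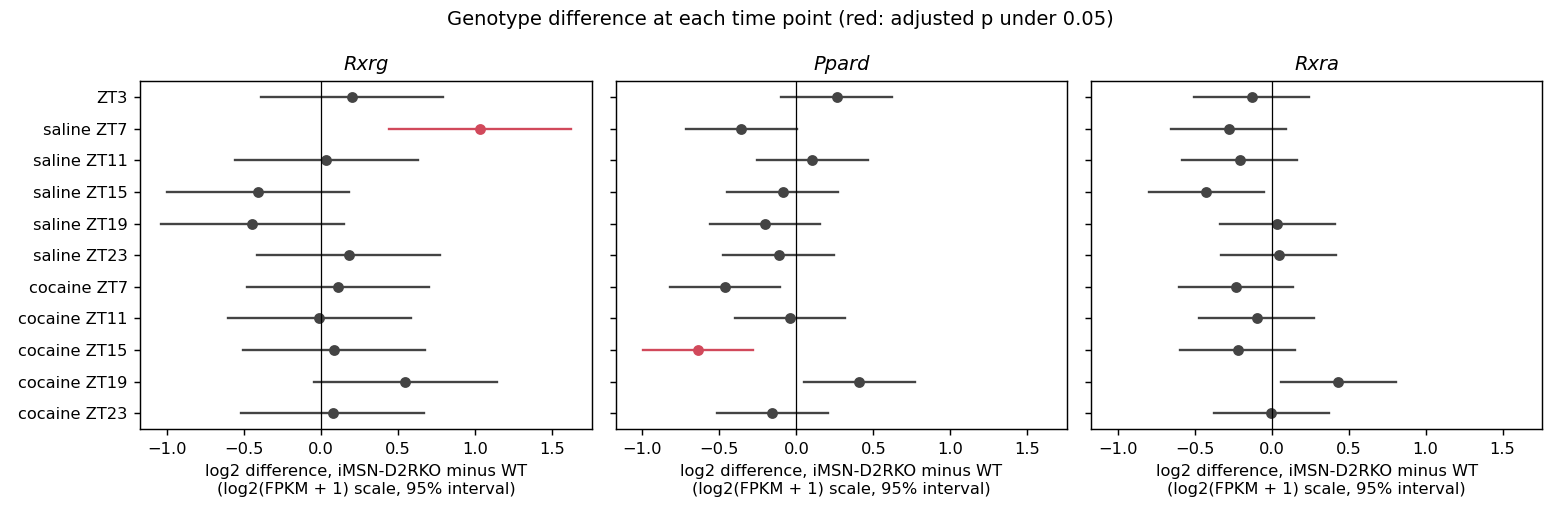
Log2 difference of iMSN-D2RKO minus WT for Rxrg, Ppard and Rxra at each time point and treatment, on the log2(FPKM + 1) scale, with 95% intervals from limma; red marks an adjusted p under 0.05. Rxrg passes at saline ZT7 (1.03) and Ppard at cocaine ZT15 (-0.64), and other estimates lie on both sides of 0.

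Cocaine against saline at single times called 0 of 35 tests of members in WT (0.00683% of all) and 0 of 35 in iMSN-D2RKO (0.00273%), with 1 and 2 at an unadjusted p under 0.05. Groups of 3 did not overlap in 2 of 35 comparisons in WT (9.35% over all genes tested) and in 1 of 35 in iMSN-D2RKO (8.65%). Between genotypes they did not overlap in 15 of 77, 19.5%, against 16.5% over all genes. Pparg, which failed the filter, is in none of these counts. Its groups did not overlap at saline ZT11 and ZT15, higher in the mutant, and at cocaine ZT23, lower. The last had means of 0.127 against 0.566 FPKM (log2 difference -0.47, unadjusted p = 0.00106, adjusted p = 0.789, limma without the filter). Within iMSN-D2RKO, Pparg was also lower without overlap under cocaine at ZT15. Rxra made up 5 of the 15, lower in the mutant at ZT3, at saline ZT11 and ZT15 and at cocaine ZT7, and higher at cocaine ZT19. At cocaine ZT19 the mutant had 10.3, 10.9 and 8.45 FPKM and WT 7.47, 6.96 and 6.66 (log2 difference 0.43, 0.06 to 0.80, adjusted p = 0.0871). In WT replicates 1 and 3 of that group are set apart, and no mutant library is. Rxrb also did not overlap there, with 41.4, 44.9 and 37.4 against 21.4, 30.9 and 26.0 FPKM (log2 difference 0.65, adjusted p = 0.0659). Without the 13 libraries Rxra was called in this contrast, (log2 difference 0.44, adjusted p = 0.0195), with a lone WT library that is assumed to vary like the other groups. With the library score as covariate, over all 6 libraries, the differences were 0.06 for Rxra (adjusted p = 0.821) and 0.04 for Rxrb (adjusted p = 0.85). Here the score nearly followed genotype, with 52.8, 15.1 and 52.5 in WT and -13.0, -10.8 and -7.98 in the mutant. It was also computed from the same expression values. This setting therefore cannot separate genotype from score.

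The rest of the pathway was described through 9 lists, 125 genes in all, of which 124 are in the table. Thyroid hormone receptor α was the main partner gene of the RXRs by level, with Thra at 241 ± 37.5 FPKM (SD, n = 66), followed by Nr4a1, the orphan receptor Nur77, at 54.4 ± 31.9. Among 16 coregulators the corepressor genes Hdac3 (35.5 ± 4.10) and Ncor1 (32.4 ± 11.6) were highest. Fat cell targets of PPARγ were led by the desaturase gene Scd1 (46.3 ± 12.3) and the lipase gene Mgll (45.4 ± 10.6), and 11 of 20 had a mean of 1 FPKM or more. Of the genes listed under fatty acid oxidation, Cpt1c stood at 46.5 ± 6.68, and 19 of 23 listed had such a mean. A place on this list does not show that a PPAR drives the gene in this tissue, and oxidation was not measured. Mitochondrial targets of PGC-1 were led by Atp5b (715 ± 120) and Gpx1 (124 ± 41.4), and its interneuron genes by Cplx1 (298 ± 78.7) and Pvalb (44.9 ± 47.8). Ptgds, which makes prostaglandin D2, a source of PPARγ ligands, averaged 287 ± 149 FPKM, and the carrier gene Fabp5 34.0 ± 13.2. Of the retinoid genes Rbp4 (23.8 ± 8.21) and Crabp1 (16.6 ± 9.23) were highest. Over the day 0 of the listed genes were called in limma in any of the 5 level comparisons or the 4 comparisons of rhythm. List medians of the level differences ran from -0.24 to 0.16 on the log2 scale, and the medians over all genes from -0.01 to 0.01.

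The study chose Adora2a, Gabrd and Kcnd1 among putative PPARγ targets that cycled in WT cocaine in these samples. Their rhythm here is therefore not independent evidence. Target status came from binding motifs and from PPARγ chromatin immunoprecipitation of another data set. The study also followed the 3 genes by quantitative PCR, by PPARγ immunoprecipitation at their promoters and after the PPARγ agonist pioglitazone. All 3 of 3 were called in WT cocaine and 0 in the other 3 series. Adora2a, an adenosine receptor gene of iMSNs, averaged 251 ± 56.8 FPKM in the ZT7 libraries of WT cocaine and 93.2 ± 19.9 in those of ZT19 (SD, n = 3; exact corrected p = 0.00115, peak ZT9). Gabrd, the δ subunit of GABA-A receptors, had 116 ± 11.4 and 50.3 ± 8.40 at these times (0.00115, peak ZT9), and the potassium channel gene Kcnd1 was called with 0.00253. Of the 3 ZT19 values of Adora2a, 82.4 and 116 came from libraries set apart and 81.2 did not. In the 13, Adora2a had a median of 87.8 FPKM against 188 in the others, and Gabrd 51.2 against 94.1. Without the 13 none of the 3 was called (exact corrected p = 0.0435, 0.0435 and 0.0318), and with the library score removed Kcnd1 was (0.00255) while Adora2a (0.211) and Gabrd (0.0809) were not. In iMSN-D2RKO saline Adora2a had a corrected p of 0.0410 and Gabrd 0.0623. A difference in rhythm was called for 0 of the 3.

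Plin4, a lipid droplet coat gene and fat cell target of PPARγ, was the listed gene called in all 4 series. In WT its ZT3 mean was 0.708 ± 0.254 FPKM and its ZT15 mean 3.35 ± 0.664 under saline and 5.43 ± 2.09 under cocaine. In iMSN-D2RKO the means were 0.282 ± 0.167 at ZT3 and 4.46 ± 1.87 and 5.78 ± 3.71 at ZT15 (SD, n = 3). Exact corrected p were 0.00533, 0.00255, 0.000307 and 0.000486, with peaks at ZT15 to ZT17. Without the libraries set apart it was still called in WT cocaine (0.00501) and iMSN-D2RKO saline (0.00738), and it had 0.0435 in WT saline and 0.0106 in iMSN-D2RKO cocaine. Pparg stayed under 1 FPKM at all these times. FPKM measure the transcript, whereas the study stained PPARγ protein in nuclei, and the amount or activity of the protein was not measured here.

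**Figure D5:**
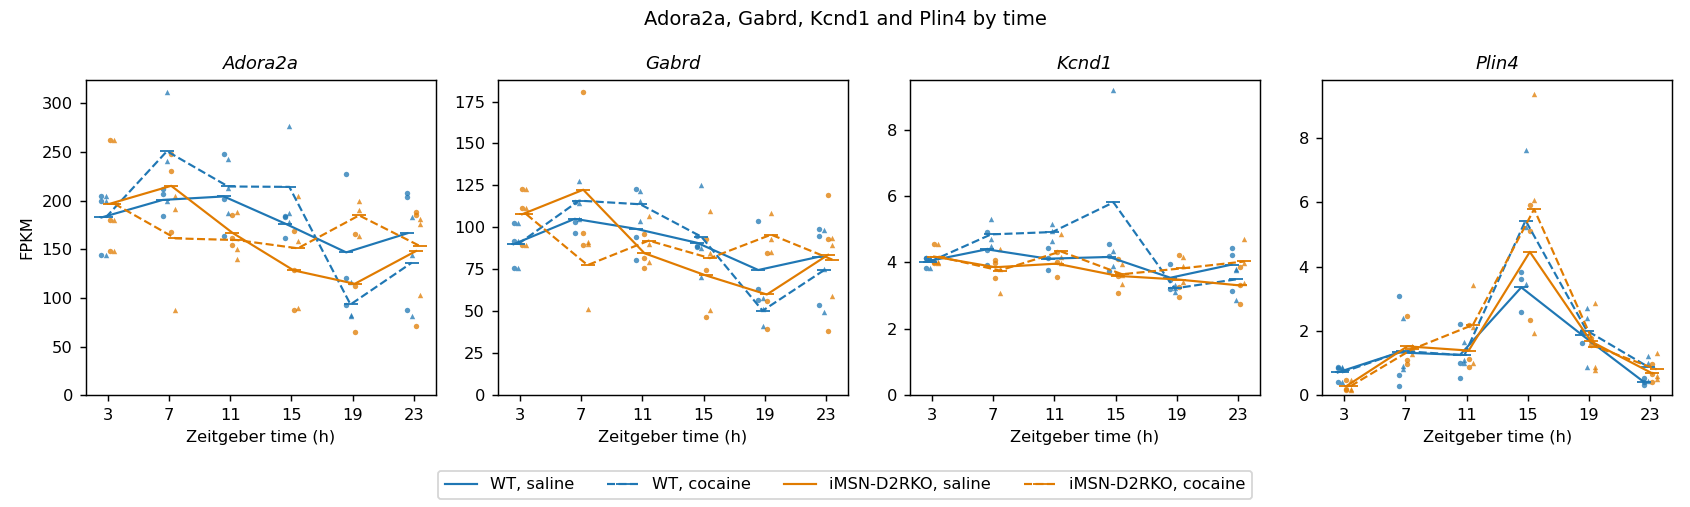
FPKM of Adora2a, Gabrd, Kcnd1 and Plin4 by zeitgeber time; points are libraries, lines join means of 3, blue WT and orange iMSN-D2RKO, with circles for saline and triangles for cocaine. Adora2a and Gabrd are lowest at ZT19 in WT cocaine, where 2 of 3 libraries are set apart, and Plin4 is highest at ZT15 in all 4 series.

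Further listed genes were called rhythmic in fewer series, to be read against the 9.81%, 7.61%, 2.58% and 1.10% of all genes called in WT saline, WT cocaine, iMSN-D2RKO saline and iMSN-D2RKO cocaine. In WT saline these were the coregulator genes Ncoa3, Ncor1 and Sirt1 (3 of 16 tested), the fat cell targets Fabp4 and Slc2a4 beside Plin4 (among 4 of 14), the oxidation genes Acaa1a and Acot2 (2 of 19), the PGC-1 partners Gabpa, Gabpb1 and Yy1 (3 of 18), and Fabp3, Fabp7 and the prostaglandin synthase gene Ptges3 (3 of 11). Ncoa3, Ncor1, Sirt1, Gabpa, Gabpb1 and Yy1 peaked at ZT19 to ZT21. In WT cocaine they were Sirt1 (1 of 16), Plin4 (1 of 13), Ehhadh and Pdk4 (among 3 of 19), Cox5b and Idh3a (2 of 18), Nefh (1 of 6) and Ptges3 (1 of 12). In iMSN-D2RKO saline only Nr1h2 (1 of 9), Plin4 and Slc2a4 (2 of 13) were called, and in iMSN-D2RKO cocaine Hdac3 (1 of 16), Nr4a1 (1 of 9) and Plin4 (1 of 11). No gene of retinoid metabolism was called in any series. Of the 15 listed genes called in WT saline, 2 were also called without the libraries set apart (Fabp7 and Gabpa). With the library score removed, 6 were. For the 12 called in WT cocaine these counts were 4 and 4. Over all genes, the total called without the 13 went from 1367 to 888 in WT saline and from 1086 to 337 in WT cocaine. These totals include newly called genes and cannot be set beside the counts of listed genes kept. The share kept among all called genes is not given here, so listed genes were not shown to be lost more often than others. The series were not tested against each other by these counts.

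Between genotypes, 6 of 105 listed genes tested were called at saline ZT7 (5.71%, against 3.07% of all genes), all higher in iMSN-D2RKO, as Rxrg was. Nr4a1 had 71.9, 42.8 and 62.2 FPKM against 23.1, 17.2 and 20.5 in WT (log2 difference 1.47, adjusted p = 0.0144, limma), and the lipoprotein lipase gene Lpl 57.3, 17 and 24 against 13.5, 10.9 and 12.5 (1.17, 0.0144). The retinoid carrier genes Crabp2 (1.28, adjusted p = 0.0216) and Rbp4 (1.18, 0.0477), the fatty acid carrier gene Fabp4 (1.16, 0.0231) and Nrf1 (0.44, 0.0307) made up the rest. The first replicate of the mutant group held the highest value of each of the 6. At cocaine ZT15 it was 4 of 105 (3.81%, against 4.40% of all genes), beside the cell markers given for Ppard. Acadm (0.52, adjusted p = 0.0372), Ptges3 (1.03, 0.0244) and the prostaglandin synthase gene Ptgs2 (1.09, 0.0049) were higher in the mutant and Fasn (-0.72, 0.0263) lower. Fasn had 38.1, 41.3 and 92.5 FPKM in WT, the last in the library that stood out for Ppargc1b.

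At cocaine ZT19, where 2 WT libraries were set apart, 11 of 105 listed genes were called (10.5%, against 11.9% of all genes). Without the filter on low values 2 of 20244 genes were called in this contrast. Esrra, the receptor through which PGC-1 raises mitochondrial genes, was higher in the mutant with 32.5, 37.0 and 47.8 FPKM against 9.61, 17.7 and 11.9 (log2 difference 1.53, adjusted p = 0.0441), as were Gabrd (0.92, 0.0495) and the interneuron channel gene Kcnc1 (1.26, 0.0446). Lower were Acadl, Acsl1, Cat, Pck1, Ptges3, Tfb1m, Tfb2m and Ucp2. Tfb2m, a mitochondrial transcription factor gene, had 2.92, 3.08 and 3.16 against 8.23, 7.67 and 9.44 FPKM (-1.22, adjusted p = 0.0444). Pck1 rested on a single WT value of 2.42 FPKM. WT replicate 2 was not among the 13, but its library score of 15.1 was the highest of the other 53. Some cell markers were also called in this contrast, at an adjusted p under 0.05 in limma. The astrocyte gene Slc1a3 (-0.87), the microglia gene P2ry12 (-1.41) and the endothelial genes Ly6c1 (-1.27) and Slco1a4 (-0.55) were lower in the mutant. Drd1 (0.74) was higher. No other gene of their marker lists was called, and 11.9% of all genes were. The part of the set apart libraries in these calls was not tested.

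The genes whose pattern was most like that of a member were sought among 9584 genes with a mean above 5 FPKM, by the correlation of log2(FPKM + 1) over the 22 group means. For Rxra they were Ip6k1 (r = 0.96), Poldip3 (0.96) and Dgcr2 (0.96), and for Rxrb they included the locus listed as Gnb2 and Mir6418 (0.97) and Rbck1 (0.97). For Rxrg they were Hmg20b, Stard10 and Dhrs3 (0.84 each). Ppargc1a was closest to the sodium channel gene Scn1a (0.96), Eif5a2 (0.93) and Pde8a (0.92), and Ppargc1b to Lrba (0.94), Nsd1 (0.92) and Fat3 (0.92). For Ppard they included 5031439G07Rik (0.93) and Slco3a1 (0.92). The group means contain the libraries set apart; with means taken over the other libraries, r was 0.94 for Rxra with Ip6k1, 0.91 for Rxrb with Rbck1, 0.71 for Rxrg with Hmg20b, 0.85 for Ppargc1a with Scn1a, 0.81 for Ppard with 5031439G07Rik and 0.85 for Ppargc1b with Lrba. Ppara and Pparg, with means under 1 FPKM, were left out.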

How the data were processed

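Poly(A) RNA of ventral striatum punches was made into libraries with a stranded kit and sequenced from a single end. The authors aligned reads to mm10 with TopHat and Bowtie, assembled with Cufflinks and deposited FPKM per gene, normalized over all libraries with Cuffnorm; base calling with CASAVA 1.8.2 is from the submitters' processing notes. The deposited table holds 72 columns, 6 of which list the ZT3 libraries again with identical values and were used once; 0 columns were of unknown samples. The sources do not say whether each library is a separate animal, so p-values measure the spread between these libraries, which may be technical.

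JTK_CYCLE 3.1 was rewritten in Python 3.11.15 (periods 20 and 24 h, interval 4 h, exact p corrected over 11 combinations of period and phase, at most 1 replicate per time left out as an outlier by Dixon's test); the window that the study states also covers longer periods, which were left out here; the ranking of tied waves was settled from the study's own listing. Levels, single times and 24 h cosines were tested on log2(FPKM + 1) with limma 3.58.1 (R 4.3.3, empirical Bayes with a trend), genes reaching 1 FPKM in at least 1 compared library, and Benjamini-Hochberg adjustment over all genes with a threshold of 0.05. Fold changes on this scale understate those of low genes. Single times were fitted over all 22 groups, which share 1 estimate of the spread. Libraries set apart were found on the first principal component of within-group residuals of genes with a mean above 5 FPKM. Both procedures were tested on simulated data.

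The text names the 8 members, the 3 genes most like each member with a mean of at least 1 FPKM, the 2 listed genes of highest mean per list, listed genes that passed a test, and Drd2. Some genes that this rule names are not reported here. The members and lists were chosen with earlier results of these data known. Libraries that stood out within a group were named after their values were seen. Alternatives were a pseudocount of 0.1, no filter, centring, leaving out each replicate, each time point and the libraries set apart, the library score as covariate, and a replicate block. Figures were drawn with matplotlib 3.10.9.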

Additional observations from a re-analysis of the deposited data

How the results depend on the processing

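Counts of members called were recomputed under each alternative. In WT saline, 1 member (Ppara) was called by JTK_CYCLE; the count was 0 without ZT11, without ZT15, without ZT23, without the libraries set apart and in the limma F test of 24 h, and 0 to 1 when each replicate was left out. With the replicate block, the F test called 1 member in WT saline, Ppargc1b, and the share over all genes is not given here. In WT cocaine, the count of 0 became 1 at a corrected p under 0.05 (Ppargc1a), where 2779 of 14268 genes were called. It was also 1 without ZT23 (Ppargc1a, 586 genes called) and without ZT15 (Ppard, 1864 genes). In iMSN-D2RKO saline it became 1 at a corrected p under 0.05 (Rxrg), where 1602 of 14135 genes were called. It was also 1 without the libraries set apart (Rxrg, 171 genes) and without ZT19 (Ppara, 138 genes). The members were not tested against these numbers. For single time points between genotypes, the count of 2 became 1 without the filter, 1 after centring and 1 with the replicate block (adjusted p = 0.0507 for Rxrg at saline ZT7 and 0.0369 for Ppard at cocaine ZT15), and it ran from 0 to 2 when each replicate was left out. For single times in WT, cocaine against saline, it became 1 without the libraries set apart (Rxra at ZT19, 1 library per arm, assumed to vary like the other groups; log2 difference -0.58, adjusted p = 0.0215); with the library score as covariate, over 6 libraries, it was -0.04 (adjusted p = 0.919). Level comparisons and differences in rhythm gave 0 members called under all alternatives run, and the 5 level estimates given with intervals kept their sign. Why calls changed was not tested, beyond the fewer libraries of some settings.

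Replicate numbers are names here: deviations from group means correlated at -0.003 on average between libraries with the same number and at 0.003 between different numbers, and 22 of 66 libraries were closest to one of their own number. The block changed no other count of members called. FPKM carry no counts, so precision at the low levels of Ppara and Pparg is not known.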
